A study of Mus musculus with 2 samples.

Results

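Chromatin precipitated with an antibody against Tbx3 from mouse embryonic stem cells left 2504 distinct sequence tags on the mitochondrial genome, unevenly spread along it and between its strands. They are all tags that the Tbx3 library lists on chromosome M, counted by strand in consecutive non-overlapping bins of 50 bp; the whole library holds 6885523 tags. Tbx3 is a T-box transcription factor, and chromatin immunoprecipitation followed by sequencing (ChIP-seq) recovers the DNA that an antibody pulls down. Per the labels' protocols, the D3 and R1 lines of embryonic stem cells were grown untreated with leukaemia inhibitory factor on inactivated embryonic fibroblasts, and nuclei were sonicated before precipitation. Which of the lines was used for the library is not stated. They name no genotype change, and they do not say whether fibroblasts were removed, so mitochondrial DNA of the feeders cannot be told apart from that of the stem cells. The group described has 1 library. The non-precipitated input has 10647721 tags on 20 chromosomes and lists 0 on chromosome M, so no background level can be set beside any value here and none is an enrichment over input.

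The mitochondrial genome is a small circular DNA present in many copies per cell. It encodes subunits of respiratory complexes I, III, IV and V, the ribosomal RNAs and transfer RNAs (tRNAs) of mitochondrial translation, and a control region (the D-loop) where replication of one strand and transcription start. Its strands are called heavy and light for their unequal base composition. The standard record is written as the light strand, and all genes but ND6 and 8 tRNA genes read in its direction. A plus-strand tag begins at its listed position and runs in the direction of the record, and a minus-strand tag runs against it. Nuclear chromosomes also carry inserted copies of mitochondrial DNA, and a tag that matches such a copy as well cannot be placed uniquely.

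Tags were far denser on the mitochondrial record than on nuclear chromosomes. They lay at 153.6 distinct tags per kb (95% exact Poisson interval 147.7 to 159.8), against 2.51 to 3.22 tags per kb on the 19 autosomes (median 2.69), a ratio of 57.2 to the median (55.0 to 59.5). Chromosome M took 0.0364% of the library (exact binomial interval 0.0350% to 0.0378%). When nuclear chromosomes were divided into windows of the same length, the fullest of 154809 windows with a tag held 1754 tags and the median window held 46. The ratio describes 1 library, and the number of mitochondrial genomes per cell was not measured. No position and strand was listed more than once, so a count here is a number of occupied positions, which cannot pass 50 per bin and strand. Occupied positions made up 5.71% of the plus and 9.65% of the minus strand, and 142 positions were occupied on both. Intervals throughout cover counting error only, and neighbouring bins are not independent.

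**Figure D1:**
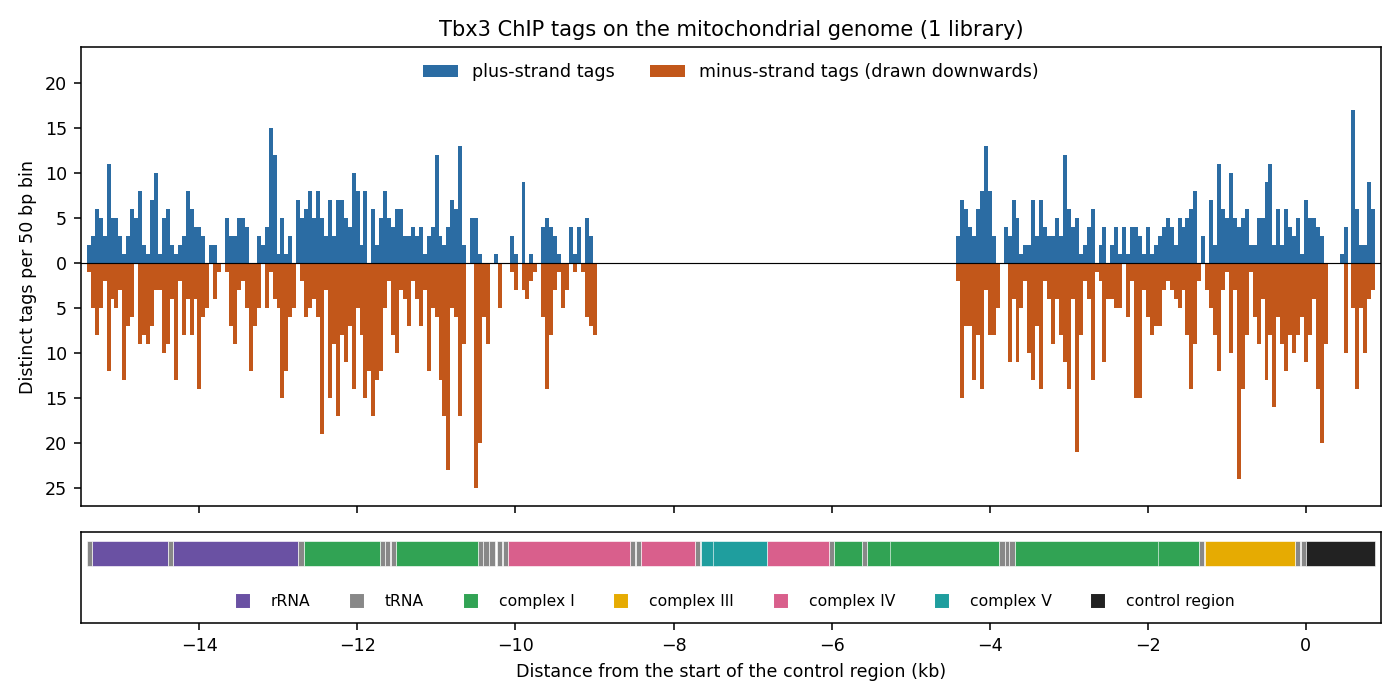
Distinct Tbx3 ChIP tags per 50 bp bin along the mitochondrial genome, plus strand upwards and minus strand downwards, against distance from the start of the control region in kb; the lower strip shows the annotated features by class. The plus strand reaches 17 and the minus strand 25 tags per bin, and 91 consecutive bins in the middle hold no tag on either strand.

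The most extensive feature of the map was an empty stretch that covers much of complex IV and complex V gene space. Between the minus-strand tag at position 6425 and the plus-strand tag at 11028 (mm8, chromosome M), 4602 bp held no tag on either strand, which is 28.2% of the record. The count of 0 allows a density of up to 0.652 tags per kb there (3 tags over the stretch), against 214.1 tags per kb over the rest of the record. In 50 bp bins it ran from 6450 to 10999, over 91 bins. It began inside COX1, the gene of the largest catalytic subunit of cytochrome c oxidase, and ended inside ND4, which encodes a membrane-arm subunit of NADH dehydrogenase. The 11 features that lay wholly inside it were COX2, COX3, ATP6, ATP8, ND3, ND4L and the tRNA genes TrnS1, TrnD, TrnK, TrnG and TrnR. COX2 and COX3 encode the other core subunits of complex IV, and ATP6 and ATP8 encode membrane subunits of the ATP synthase. The limit that 0 tags allows was 3.83 tags per kb for COX3, 4.39 for COX2, 4.41 for ATP6, 8.62 for ND3, 10.1 for ND4L and 14.7 for ATP8.

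The edges of the empty stretch differed by strand. The last plus-strand tag before it lay at 6391 and the last minus-strand tag at 6425, 34 bp further along the record. After it, the first plus-strand tag lay at 11028 and the first minus-strand tag at 11044, 16 bp further along. The same order held at the other long gaps. Of the 10 edges of the 5 longest plus-strand gaps and their minus-strand counterparts, all 10 had the minus-strand tag at the higher position, by 3 to 78 bp (median 36 bp). Neighbouring gaps share the plus-strand tag at 5199, so the edges are not all separate observations. The input tags are 35 bp long. The Tbx3 tags are listed without a length, and from the highest plus-strand tag, at 16267, to the end of the record there were 33 bases. These gaps at base resolution were looked at after the bins had been seen. Whether the empty stretch has an identical nuclear copy was not tested, since no genome sequence was used here.

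Smaller gaps lay in the control region, around a cluster of tRNA genes and within COX1. In the control region, 211 bp between the tags at 15687 and 15899 were empty on both strands. On the plus strand this gap was 261 bp long (15637 to 15899) and on the minus strand 229 bp (15687 to 15917). Between ND2 and COX1, the tRNA genes TrnA, TrnN, TrnC and TrnY lie head to tail on the minus strand, and the origin of light-strand replication lies among them. Plus-strand tags were missing for 201 bp from 4997 to 5199 and again for 175 bp from 5199 to 5375. Minus-strand tags were missing for 133 bp from 5068 to 5202 and for 144 bp from 5237 to 5382. Within COX1, plus-strand tags were missing for 136 bp from 5996 to 6133 and minus-strand tags for 97 bp from 6074 to 6172. TrnN, TrnY and, further along, TrnH (the tRNA genes for asparagine, tyrosine and histidine) were the 3 features outside the longest empty stretch with 0 tags, which allows up to 42.3, 44.8 and 44.8 tags per kb. The short length of these genes makes those limits loose. Over all bins of the record, 103 (31.6%) had no tag, 190 had tags on both strands, 21 on the minus strand only and 12 on the plus strand only.

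Densities differed between genes, and ND1 led the protein-coding genes. Each feature was tested for occupied positions against the rest of the record (two-sided Fisher's exact test, Benjamini-Hochberg over 38 features, adjusted p under 0.05). The test takes positions as independent. Over bins with a tag, however, the variance was 2.16 (plus) and 3.60 (minus) times the mean, so its p-values are likely too small. By that test 12 features were denser (31.6% of those tested) and 16 sparser (42.1%), and the 14 features with no tag were all among the sparser. Because the empty stretch lowers the rest of the record, each density was also set against the record without that stretch, an alternative chosen after seeing the data. There, of 27 features, 5 were denser (18.5%) and 8 sparser (29.6%).

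The complex I genes outside the empty stretch held many tags. ND1, a subunit near the quinone site of NADH dehydrogenase, held 105 plus and 194 minus tags, or 312.4 tags per kb (280.5 to 346.5). This was 2.17 times the rest of the record (adjusted exact p = 1.90e-32) and 1.52 times the rest without the empty stretch (adjusted exact p = 7.11e-11, Fisher's exact test). ND2, a proton-pumping membrane subunit, held 94 plus and 174 minus tags, or 258.2 per kb, 1.76 and 1.23 times the rest on the same bases (adjusted exact p = 5.16e-17 and 0.00312). Of ND4, 62.5% lies in the empty stretch, and over the whole gene its 61 plus and 90 minus tags made it sparser than the rest, at 109.6 per kb. Over the part outside the empty stretch the direction turned, with 292.1 per kb (250.1 to 338.1), 1.39 times the rest (adjusted exact p = 0.000274). ND5, the longest of the complex I genes, held 124 plus and 262 minus tags, or 211.6 per kb (192.0 to 232.5). ND6, the protein gene that reads in the opposite direction, held 46 plus and 58 minus tags, or 200.4 per kb (165.2 to 240.2). Both exceeded the rest of the whole record (1.45 and 1.32 times, adjusted exact p = 8.03e-11 and 0.00776). Neither call was left once the empty stretch was taken out, where the ratios were 0.986 and 0.933 (adjusted exact p = 0.881 and 0.619).

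CYTB, the complex III gene for cytochrome b, was dense on both bases, and COX1 was sparse on both. CYTB held 118 plus and 191 minus tags, or 270.1 per kb (242.6 to 299.5), which was 1.86 times the rest of the record (adjusted exact p = 1.40e-22) and 1.30 times without the empty stretch (adjusted exact p = 4.42e-05). COX1 held 48 plus and 77 minus tags. Only 28.9% of COX1 lies in the empty stretch, and the remainder still had 113.8 tags per kb (95.2 to 134.9), 0.507 times the rest (adjusted exact p = 2.74e-16). The low density of COX1 is therefore not limited to the empty stretch. Taken as a class, complex IV genes stood at 41.5 tags per kb, with COX2 and COX3 at 0, and complex V genes at 0.

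Set against the record outside the empty stretch, the control region and the small-subunit ribosomal RNA gene were near its level, and the large-subunit gene was below it. The gene of the small-subunit RNA, mt-Rnr1, held 95 plus and 123 minus tags, or 228.3 per kb (200.4 to 258.5). The gene of the large-subunit RNA, mt-Rnr2, held 112 plus and 175 minus tags, or 181.4 per kb (161.8 to 202.5). Against the whole record both were called denser, at 1.53 and 1.20 times (adjusted exact p = 7.98e-09 and 0.00380). Without the empty stretch mt-Rnr1 was 1.07 times the rest (adjusted exact p = 0.401) and mt-Rnr2 turned to sparser, at 0.828 times (adjusted exact p = 0.00388). The control region held 67 plus and 114 minus tags, or 206.4 per kb (178.7 to 236.8). It was 1.37 times the whole record (adjusted exact p = 7.56e-05) and 0.961 times the record without the empty stretch (adjusted exact p = 0.709). A setting of only bins with a tag on either strand also leaves out the empty bins of the control region. There its occupied percent was 2.28 points above the rest (Fisher's exact test, adjusted exact p = 0.0288). The density interval of the control region overlapped those of both ribosomal genes, ND5 and ND6, and the lower end of that of ND2 (229.9 to 288.6). Its own place in the order of these features was therefore not resolved by the tag counts.

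Of the 22 tRNA genes, 14 held tags, between 5 and 26 each, at 72.5 to 376.8 tags per kb (median 181.5). Against the whole record 4 were denser and 8, all with 0 tags, were sparser. Among those denser was TrnI, the isoleucine tRNA gene next to ND1, with 11 plus and 15 minus tags, the highest density of any feature at 376.8 per kb (253.8 to 527.5). It was also called without the empty stretch, at 1.77 times the rest (adjusted exact p = 0.0126). TrnM (6 plus, 13 minus), TrnW (1 plus, 20 minus) and TrnL2 (6 plus, 13 minus) passed only against the whole record. Without the empty stretch TrnV, TrnC and TrnE, at 87.0, 90.9 and 72.5 tags per kb, were called sparser (adjusted exact p = 0.0275, 0.0467 and 0.00965), as were the 3 empty genes TrnN, TrnY and TrnH. These genes are short, so their counts are those of a few bins.

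**Figure D2:**
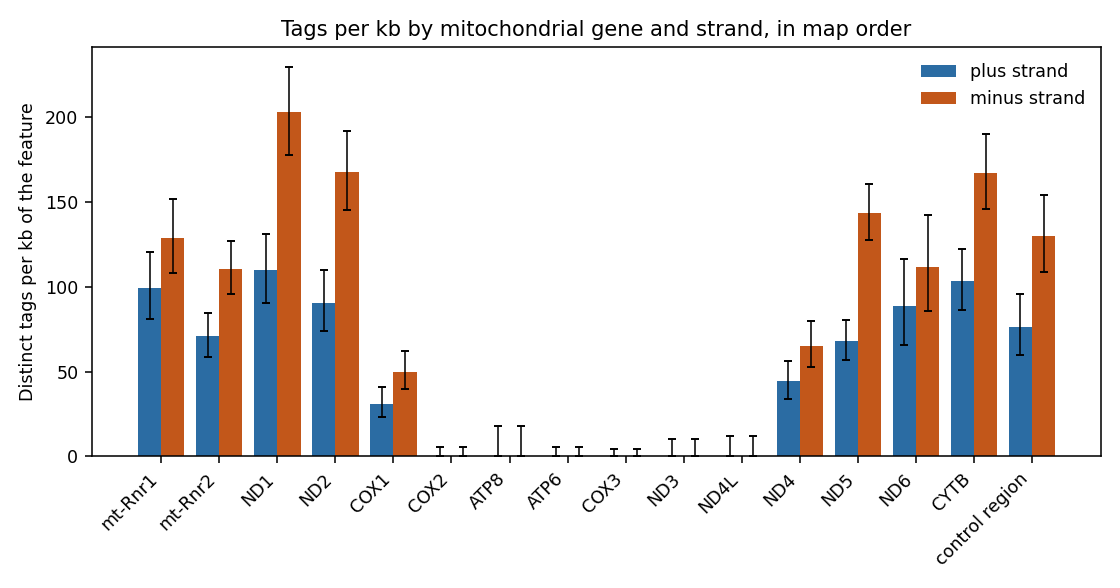
Distinct tags per kb of each protein-coding gene, ribosomal RNA gene and the control region, by strand, in map order; error bars are 95% exact binomial intervals of the occupied positions. The minus-strand bar is taller in every feature that holds tags, and 6 protein-coding genes from COX2 to ND4L have 0 tags.

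More tags lay on the minus than on the plus strand, and this was so across most of the record. The plus strand held 931 and the minus strand 1573 tags, a plus share of 37.2% (95% exact interval 35.3% to 39.1%, two-sided exact binomial test against equal strands, p = 5.76e-38). On the 19 autosomes the plus share was between 49.9% and 50.1%, and in the 10 fullest nuclear windows of the same length, with 686 tags or more each, between 46.6% and 52.7%. The minus strand held more tags in 23 of the 24 windows of 500 bp that had any, and in 20 of the 24 features with a tag. Of bins with tags, 144 had more minus tags, 57 more plus tags and 22 equal numbers. Leaving out the control region gave a plus share of 37.2%, and leaving out the bins away from the strand mean gave 37.7%.

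**Figure D3:**
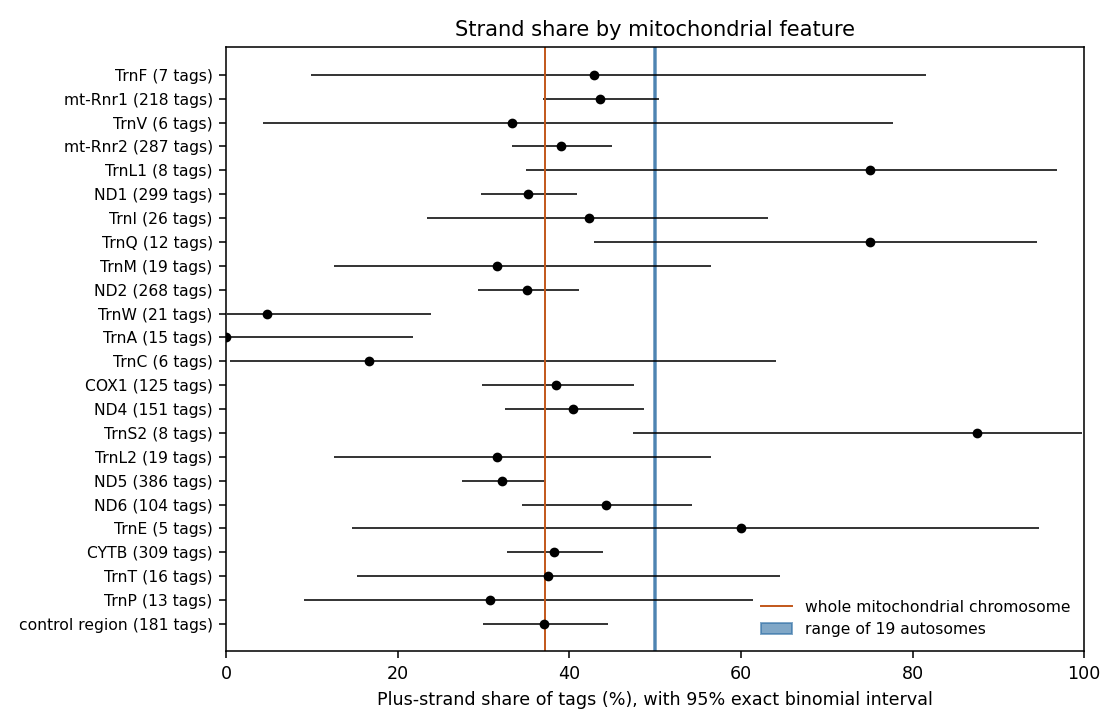
Plus-strand share of the tags in each mitochondrial feature with a tag, as percent with 95% exact binomial interval; the vertical line is the whole mitochondrial chromosome (37.2%) and the band is the range of 19 autosomes. All protein-coding and ribosomal RNA genes that hold tags, and the control region, have point values below the band, and tRNA genes scatter with wide intervals.

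The plus share of the large features lay in a narrow range. It was 32.1% in ND5 (27.5% to 37.0%), 35.1% in ND1 (29.7% to 40.8%), 35.1% in ND2 (29.4% to 41.1%), 37.0% in the control region (30.0% to 44.5%), 38.2% in CYTB (32.7% to 43.9%) and 38.4% in COX1 (29.8% to 47.5%). The share was 39.0% in mt-Rnr2 (33.3% to 44.9%), 40.4% in ND4 (32.5% to 48.7%), 43.6% in mt-Rnr1 (36.9% to 50.4%) and 44.2% in ND6 (34.5% to 54.3%). None of these 10 passed the test against the rest of the record (Fisher's exact test, Benjamini-Hochberg over 24 features, smallest adjusted exact p = 0.123, for ND5). The intervals of mt-Rnr1 and ND6 include equal strands, so an excess of minus tags within those genes was not resolved. Of the 24 features, 3 differed from the rest in strand share (12.5%), each a tRNA gene. TrnW, for tryptophan, held 1 plus and 20 minus tags, and TrnA, for alanine, 0 plus and 15 minus tags (adjusted exact p = 0.0215 for both). TrnA lies inside the plus-strand gap from 4997 to 5199 described above, so its 0 plus tags restate that gap. TrnS2, a serine tRNA gene, leaned the other way, with 7 plus tags and 1 minus tag (adjusted exact p = 0.0419). With tags moved by 62 bp along their reading direction, 0 of the features passed. That distance is a setting, and no fragment length is derived from this record.

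Strand shares also varied along the record at the scale of 500 bp, though none of the 24 windows passed after adjustment (0%, Fisher's exact test, smallest adjusted exact p = 0.0668, 6 at an unadjusted p under 0.05). The lowest plus shares were 17.2% (5 plus and 24 minus tags) from 5000 to 5499, over the tRNA cluster and the start of COX1, and 23.0% (17 plus and 57 minus) from 15500 to 15999, in the control region. Both windows take in gaps described above, whose edges differ by strand. The highest plus shares were 50.6% (42 plus and 41 minus) from 16000 to the end of the record, in the control region, and 49.5% (52 plus and 53 minus) from 14000 to 14499, over ND6, TrnE and the start of CYTB. In 50 bp bins, 5 of 223 passed (2.24%). From 2300 to 2349 in mt-Rnr2 there were 15 plus tags and 1 minus tag (adjusted exact p = 0.000781). From 16000 to 16049 in the control region there were 17 plus and 5 minus tags (adjusted exact p = 0.0197), and from 11350 to 11399 in ND4 13 plus and 3 minus tags (adjusted exact p = 0.0293). From 2650 to 2699, at the end of mt-Rnr2 and in TrnL1, there were 7 plus and 0 minus tags, and from 4950 to 4999, over ND2 and TrnW, 1 plus and 20 minus tags (adjusted exact p = 0.0466 for both). The tags of this last bin are those counted for TrnW above. Of the 5 bins, 4 leaned to the plus strand, against the record as a whole. With fewer plus tags in all, a plus lean passes at smaller counts. The 7 plus and 0 minus tags above passed, while 0 plus and 12 minus tags from 2050 to 2099 did not (Fisher's exact test, adjusted exact p = 0.143). The direction of the 5 bins is therefore no measure of how many bins lean each way.

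Single bins reached high occupancy at a few places. Each bin was tested against the mean occupancy of its strand (two-sided exact binomial test, Benjamini-Hochberg over both strands of all bins). On the plus strand 26 bins were higher (7.98%) and 0 lower (0%). On the minus strand 50 were higher (15.3%) and 115 lower (35.3%). All 115 were bins with 0 tags, at an adjusted exact p of 0.0460. An empty plus-strand bin had an adjusted exact p of 0.202 and could not be called at this tag number. No plus-strand bin was lower at an unadjusted p under 0.05 either, so the unequal numbers of lower bins come with the unequal strand totals. Without the empty stretch, 13 plus-strand bins (5.53%) and 28 minus-strand bins (11.9%) were higher, and 24 minus-strand bins were lower (10.2%).

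The fullest minus-strand bins lay in ND2, CYTB and ND5. From 4900 to 4949 in ND2, 25 of 50 minus positions were occupied (50%, 35.5% to 64.5%), 5.18 times the strand mean (adjusted exact p = 2.99e-10), beside 5 plus tags. The next bin, from 4950 to 4999 at the end of ND2 and in TrnW, held 20 minus tags and 1 plus tag. The longest run of consecutive occupied minus positions, 15 bp from 4960 to 4974, lay there. This dense stretch stood between the empty bins from 4800 to 4849 and from 5100 to 5149. Also in ND2, 23 minus tags lay from 4550 to 4599 and 17 from 4500 to 4549. CYTB had 24 minus and 4 plus tags from 14550 to 14599 (adjusted exact p = 1.36e-09), and ND5 had 21 minus and 5 plus tags from 12500 to 12549 (adjusted exact p = 2.55e-07). The control region had 20 minus and 3 plus tags from 15600 to 15649 (adjusted exact p = 1.21e-06), just before its gap. ND1 had 19, 17 and 17 minus tags in the bins starting at 2950, 3150 and 3600.

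The fullest plus-strand bins were mostly at other places. The first was in the control region from 16000 to 16049, where 17 of 50 plus positions were occupied (34%, 21.2% to 48.8%), 5.95 times the strand mean (adjusted exact p = 1.90e-07). It followed an empty bin from 15950 to 15999, and the bin after it held 6 plus and 14 minus tags. In mt-Rnr2, 15 and 12 plus tags lay in the bins starting at 2300 and 2350 (adjusted exact p = 5.76e-06 and 0.000651). ND2 from 4700 to 4749 and ND4 from 11350 to 11399 held 13 plus tags each (adjusted exact p = 0.000143), with 17 and 3 minus tags. ND2 from 4400 to 4449 and ND5 from 12350 to 12399 held 12 each. The bins starting at 250 in mt-Rnr1 and at 14300 and 14950 in CYTB held 11 each. Of these 10 plus-strand bins, 1 (from 4700 to 4749 in ND2) had as many minus tags, 17, as the last of the 10 fullest minus-strand bins, and the other 9 had fewer. The counts of the strands over the 223 bins with a tag had a Pearson correlation of 0.161 and a Spearman correlation of 0.204, and over all bins, with the empty stretch in, a Pearson correlation of 0.481. These describe bins of 1 library that share its depth and placement of tags.

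The spread between bins was wider than counting alone gives. Over the 223 bins with a tag the variance was 2.16 times the mean on the plus strand (median 4 tags, interquartile range 2 to 6, highest 17) and 3.60 times on the minus strand (median 6, 3 to 10, highest 25). The 33 fullest bins held 33.6% of the plus and 33.8% of the minus tags. Bins that were higher than the strand mean formed 21 separate stretches on the plus strand, of at most 3 bins, and 38 on the minus strand, of at most 5 bins. They lay in both ribosomal RNA genes, the complex I genes outside the empty stretch, CYTB, the control region and some tRNA genes. The stretch of 5 bins ran from 3500 to 3749 in ND1 and TrnI, with 69 minus tags. COX1, sparse as a whole, also held such bins, with 9 plus tags from 5500 to 5549 and 14 minus tags from 5800 to 5849 (adjusted exact p = 0.0240 and 0.00338).

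Strands were weakly correlated at short shifts. When minus-strand tags were shifted against plus-strand tags base by base, the smoothed correlation was highest at 31 bp, at 0.0603, and had a second rise to 0.0557 at 135 bp. At the farthest shift, 400 bp, it was 0.0215, the lowest of the range. Without the empty stretch the same maxima were 0.0292 at 32 bp and 0.0261 at 135 bp, and the correlation at 400 bp was -0.0077. The empty stretch thus raised the level of the curve, and both rises kept their place within 1 bp when it was left out. Without the control region the first maximum was 0.0606 at 32 bp, but the second was 0.0551 at 118 bp. The place of the second rise therefore depended on the part of the record used. The curve has other, lower rises within its range, and positions along 1 record are not replicates.

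**Figure D4:**
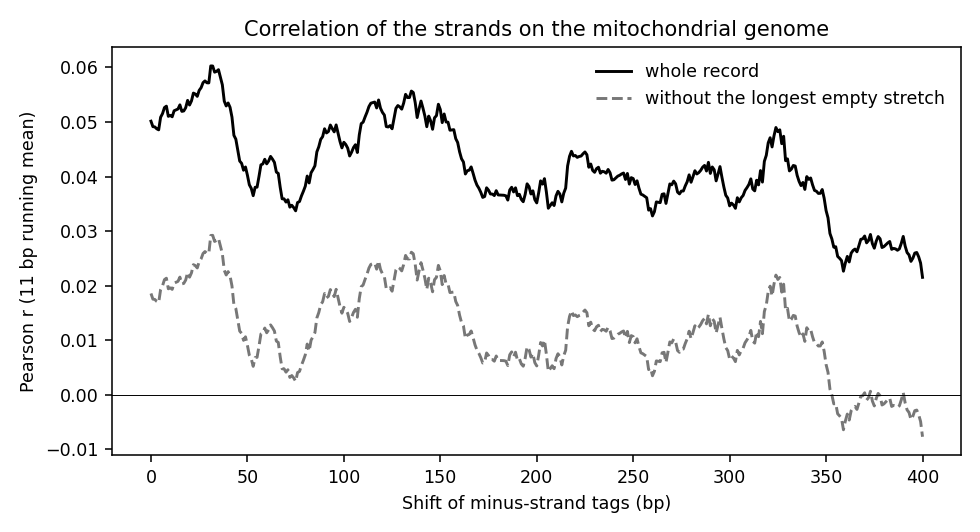
Pearson correlation of plus-strand tags with minus-strand tags moved by 0 to 400 bp, as an 11 bp running mean, for the whole mitochondrial record (solid) and without the longest empty stretch (dashed). The solid curve is highest at 31 bp (0.0603) and rises again to 0.0557 at 135 bp, and the dashed curve follows it at a lower level.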

How the data were processed

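The deposited Tbx3 file lists the chromosome, position and strand of each tag, and the deposited input file the ends of each 35 bp tag; positions are on mm8, per the submitters' processing notes. How tags were aligned and filtered is not given in the sources used here. No mitochondrial position and strand occurs more than once in the Tbx3 file, and whether repeated tags were removed before deposit is not stated. Mitochondrial tags were read as 5′ ends at 1-based positions of the mitochondrial record and counted in 50 bp bins with Python 3.11.15 (numpy 2.4.6, scipy 1.17.1, pandas 2.3.3). Gene boundaries and symbols came from RefSeq's table of GRCm38.p6, in which all 37 mitochondrial genes were matched. This assumes that mm8 holds the same record, and no boundary is printed. Gene directions are textbook knowledge. The control region was the rest of the record after the last gene.

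Occupied positions were tested with exact binomial and Fisher's exact tests, adjusted by Benjamini-Hochberg. With 1 library these tests compare places and strands of that library, not conditions. All of them take positions as independent. The bin and feature tests were tested on simulated data in which positions were drawn independently. That simulation cannot show how the tests behave where positions are not independent. Named bins were, per strand, the 10 with most tags and the lowest of those past the threshold. Moved tags were wrapped around the circular record. The members, lists and tests were chosen with earlier results of these data known.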

Additional observations from a re-analysis of the deposited data

How the results depend on the processing

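The plus share of 37.2% stayed between 36.5% and 37.8% under 4 alternatives. The number of features that differed in density, 28, was 13 with bins that had a tag on either strand, and 13 without the longest empty stretch; both leave out features with no position left. Differences in occupied percent from the rest reversed in those settings: with bins that had a tag they were -2.16 for mt-Rnr2, 2.76 for ND4, -0.775 for ND5, -1.27 for ND6 and -1.39 for rRNA genes together, and without the empty stretch -1.89, 4.08, -0.145, -0.716 and -0.959, with -0.415 for the control region. The 3 features that differed in strand share became 0 with tags moved by 62 bp, 1 with bins that had a tag on both strands and 0 at an adjusted p under 0.01. Differences in plus share that had not passed reversed for CYTB, the only complex III gene (-0.137 percentage points), and the tRNA genes together (1.56) with tags moved, and for the control region (0.896) with bins that had a tag on both strands. The 191 bins away from the strand mean became 104 with bins of 200 bp, 292 against the mean over bins with a tag, 49 at an adjusted p under 0.01 and 65 without the empty stretch. With bins of 100 bp, 51 plus-strand bins were lower, against 0 at 50 bp. The 5 bins that differed in strand share became 2 with bins of 200 bp, 0 with 500 bp, 3 with bins starting at 25, 2 with tags moved and 1 at an adjusted p under 0.01. Empty bins, 31.6%, were 28.2% to 35.1% with other bins, and 85.5% of single bases were empty. The smoothed strand correlation at a shift of 125 bp, 0.0488, was 0.0190 without the empty stretch. The density ratio to autosomes, 57.2, was 59.9 over covered 1 kb bins. Of the values of single features and classes under an alternative, 122 kept their direction and side of the threshold, 15 reversed, and 4 kept the direction and lost the call: mt-Rnr2 and ND6 with tags moved (adjusted exact p = 0.0895 for both), and mt-Rnr1 in both settings without empty positions (0.822 and 0.401). Apart from fewer bins or positions tested, the cause of these changes was not tested. The 122 include values at an adjusted p under 0.01, which equal the main values, so their direction could not change. They also include strand shares that had not passed in the main setting, and CYTB again as the complex III class. The tally is thus no count of separate checks. Settings naming the empty stretch or single bases were chosen after seeing the data. No paired analysis was possible because each group has 1 library. Tag number limits short genes and single bins most.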
